A study of Homo sapiens with 18 samples.

Results

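The 8 microRNA host genes, MIR205HG, MIR31HG, MIR100HG, MIR17HG, MIR22HG, MIR155HG, MIR210HG and MIR193BHG, were described in pancreatic ductal adenocarcinoma (PDAC) cells. They were taken by their symbols, and all 8 were present among the 40266 gene symbols measured. RNA had been sequenced in 18 libraries of the human cell lines Panc1 and Panc89. Each line was studied as parental cells, as Holoclone cells and as Paraclone cells, with 3 replicates in each of the 6 groups, taken from different cell passages. Panc1 comes from a primary tumor and served as the mesenchymal model, whereas Panc89 comes from a lymph node metastasis and served as the epithelial model. Holoclones are compact colonies ascribed to cancer stem cells, and Paraclones are loose colonies of cells without that property. All cells were cultured, and no group received a drug or a genetic change. Each Holoclone and each Paraclone line was expanded from a single cell of its parental line, so that the colony type and the particular clone cannot be told apart, and the 3 replicates of a clone line measure only the spread between passages of that clone.

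A microRNA host gene is a transcription unit that carries the hairpin of 1 or more microRNAs in an intron or an exon. Drosha cuts the hairpin out of the nascent transcript in the nucleus, Dicer trims it in the cytoplasm, and the mature strand guides an Argonaute protein to mRNAs that match its seed, bases 2 to 8. The libraries held polyadenylated RNA, so that the values below are levels of the long host transcripts, all annotated isoforms of a gene together, and mature microRNAs were not measured. Several of these genes are well known in epithelial tumors: miR-205 is an epithelial microRNA that acts on the repressors ZEB1 and ZEB2, miR-31 and the miR-17 cluster are frequently altered in cancer, and miR-210 is a classic product of hypoxia.

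The 8 genes are long noncoding RNA (lncRNA) genes in GENCODE 44 on GRCh38. MIR205HG (ENSG00000230937.13) lies at chr1:209428817-209432848 on the plus strand, MIR17HG (ENSG00000215417.14) at chr13:91347686-91397592 (+), MIR155HG (ENSG00000234883.7) at chr21:25561810-25575168 (+) and MIR193BHG (ENSG00000262454.4) at chr16:14301389-14331067 (+). On the minus strand, MIR31HG (ENSG00000171889.7) lies at chr9:21380073-21559891, MIR100HG (ENSG00000255248.11) at chr11:122028325-122556721, MIR22HG (ENSG00000186594.16) at chr17:1711447-1717174 and MIR210HG (ENSG00000247095.5) at chr11:565657-568457. The number of annotated transcripts ran from 2 for MIR155HG to 107 for MIR100HG. MIR22HG overlaps WDR81, a protein-coding gene on the other strand. The kit used marks strand, but whether the level estimates used it is not stated. MIR31HG overlaps the interferon genes IFNA1, IFNA2, IFNA8 and IFNE, none of which reached the filter on low values described below.

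RefSeq (GRCh38.p14) places 17 microRNA genes with 32 mature microRNAs inside these 8 loci. MIR17HG carries 6 of the microRNA genes, MIR100HG 4, MIR193BHG 2, and each of the other hosts 1. The main mature strand of each host is shown because it defines which product the host transcript can give rise to, with the seed in capitals. MIR205HG carries miR-205, whose 5p strand at chr1:209432166-209432187 (+) lies in an intron of 15 of its transcripts. The 3p strand of the same hairpin touches an exon in 12 transcripts. MIR31HG carries miR-31 at chr9:21512158-21512178 (−), in an intron of 21 transcripts.
miR-205-5p: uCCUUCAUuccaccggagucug
miR-31-5p: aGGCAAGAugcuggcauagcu

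MIR100HG carries 3 well-known microRNAs spread over its introns, miR-100 at chr11:122152275-122152296 (−), let-7a-2 at chr11:122146568-122146589 (−) and miR-125b-1 at chr11:122099809-122099830 (−). Their seeds differ from each other, so that a single host transcript can yield microRNAs with different sets of targets.
miR-100-5p: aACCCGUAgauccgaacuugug
let-7a-5p: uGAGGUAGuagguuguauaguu
miR-125b-5p: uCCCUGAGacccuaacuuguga

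MIR17HG carries the miR-17 cluster, whose 6 hairpins lie between miR-17 at chr13:91350618-91350640 (+) and miR-92a-1 at chr13:91351361-91351382 (+), exonic in 3 transcripts and intronic in 8. The cluster holds 2 pairs that share a seed: miR-17-5p with miR-20a-5p, and miR-19a-3p with miR-19b-3p. The seeds of miR-18a-5p and miR-92a-3p are shared with no other microRNA of the 8 hosts.
miR-17-5p: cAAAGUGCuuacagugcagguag
miR-20a-5p: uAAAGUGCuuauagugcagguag
miR-18a-5p: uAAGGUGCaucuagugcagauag
miR-19a-3p: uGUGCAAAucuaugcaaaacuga
miR-19b-3p: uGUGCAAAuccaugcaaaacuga
miR-92a-3p: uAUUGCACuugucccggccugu

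The remaining 4 hosts carry miR-22 at chr17:1713914-1713935 (−), exonic in 30 transcripts, miR-155 at chr21:25573983-25574006 (+), exonic in both transcripts, miR-210 at chr11:568112-568133 (−), intronic in 9 transcripts, and miR-193b at chr16:14304017-14304038 (+), intronic in 5 transcripts. An exonic hairpin stays part of the spliced RNA until it is cut out, whereas a hairpin wholly within an intron is not part of the polyadenylated RNA measured here.
miR-22-3p: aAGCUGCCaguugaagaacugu
miR-155-5p: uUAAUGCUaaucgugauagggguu
miR-210-3p: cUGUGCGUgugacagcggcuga
miR-193b-3p: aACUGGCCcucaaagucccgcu

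The deposited values are log2(TPM + 1), where TPM is the share of a gene's transcripts among all transcripts, corrected for their length. They hold no counts, so the depth of each library is unknown and no counting interval can be given. Between 12932 and 14199 genes per library reached 1 TPM, and replicates of a group correlated across genes with r from 0.954 to 0.992. Panc89 Paraclone replicate 2 stood farthest from its group, with a mean r of 0.962 to the other replicates, and values of the host genes that rest on this library are given with and without it. Mesenchymal-like markers, summed over 5 genes, lay between 2050 and 5180 TPM in Panc1 and between 5.40 and 31.6 TPM in Panc89 libraries. CDH1, which encodes E-cadherin, lay between 73.3 and 107 TPM in Panc89 and between 0.671 and 3.51 TPM in Panc1 libraries. The mesenchymal-like sum of Panc1 was led by VIM, with at least 2020 TPM in Panc1 and at most 0.456 TPM in Panc89 libraries. VIM, ZEB1, SPARC and CDH1 followed the labelled models. FN1 went the other way, with at most 0.697 TPM in Panc1 and at least 0.991 TPM in Panc89 libraries, and CDH2 overlapped. The epithelial marker sum, led by keratins, also overlapped between the lines. The endothelial markers PECAM1 and CDH5 summed to 55.1 to 68.9 TPM in parental Panc89 cells and to at most 8.80 TPM elsewhere, and no call of a host gene followed that order. In the tests, a gene had to reach 1 TPM in at least 3 libraries, which left 16093 genes and all 8 host genes. Groups were compared with limma on the log2(TPM + 1) scale, and a gene was called when its p-value, adjusted over all genes tested, was under 0.05. Adding 1 before the logarithm shrinks the changes of weakly expressed genes such as MIR155HG and MIR193BHG. The 3 replicates of a group come from passages of the same cells, so that the p-values measure the spread between passages.

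The host genes were expressed at very different levels. MIR205HG had the highest mean TPM over the 18 libraries and exceeded 93.2% of the genes tested, followed by MIR22HG, which exceeded 65.1%. MIR100HG and MIR210HG stood in the middle range, at percentiles 44 and 41.6. MIR31HG and MIR17HG were lower, at percentiles 27.1 and 22.8, and MIR193BHG and MIR155HG were low, at 8.58 and 7.39. The groups differed most for MIR205HG, whose group means spanned 8.63 on the log2(TPM + 1) scale, and for MIR100HG with a span of 3.36 and MIR210HG with a span of 2.76. MIR193BHG had the smallest span among the 8, 0.68.

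**Figure D1:**
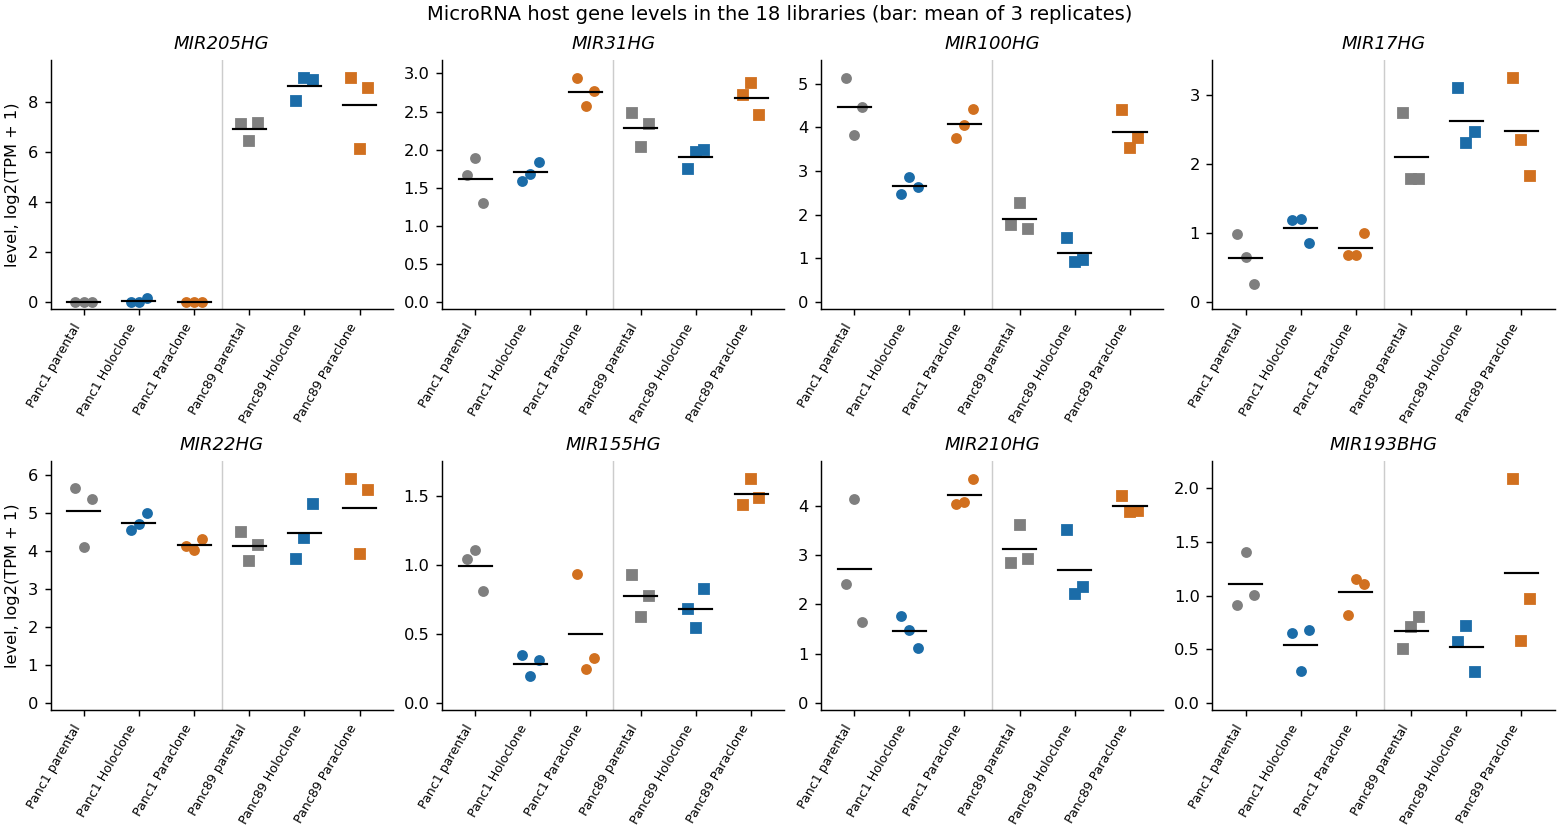
Level of each of the 8 host genes in every library, as log2(TPM + 1) on the vertical axis, for the 6 groups (points: 3 replicates, bar: their mean, circles Panc1, squares Panc89). MIR205HG lies at or next to 0 in all Panc1 groups and high in Panc89, MIR17HG is split between the lines, and MIR31HG and MIR210HG are high in both Paraclone groups.

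To ask how the epithelial and the mesenchymal model differ, Panc89 was compared with Panc1 within each cell variant. Of the 8 host genes, 4 were called between the parental cells, 3 higher and 1 lower in Panc89, beside 66% of all genes tested. Between the Holoclone cells 5 were called, 4 higher and 1 lower, beside 65.8% of all genes, and between the Paraclone cells 3 were called, all higher in Panc89, beside 60.7%. The median log2 fold change of the 8 genes was 0.09, 0.30 and 0.58 in these comparisons, and that of all genes was −0.18, −0.11 and −0.003. The share of host genes called was thus not above the share of all genes in any of them. The compared groups did not overlap in level for 5, 5 and 3 of the 8 host genes, beside 73.3%, 69% and 64% of all genes tested. As in all bulk samples, fewer cells with a transcript and less transcript per cell cannot be told apart.

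MIR205HG, the host of the epithelial microRNA miR-205, set the lines apart most strongly. It was listed at 0 in 8 of the 9 Panc1 libraries, and the remaining library, Panc1 Holoclone replicate 3, held 0.110 TPM. Parental Panc89 cells had 140, 84.8 and 140 TPM in replicates 1 to 3, Panc89 Holoclone cells 265, 495 and 467 TPM, and Panc89 Paraclone cells 496, 69.4 and 373 TPM. No Panc89 library came near a Panc1 library. Because the Panc1 groups were listed at 0, no fold is given, and the adjusted p was 6.20e-09 for the parental, 4.31e-10 for the Holoclone and 1.31e-09 for the Paraclone cells. Within Panc89, Holoclone cells exceeded the parental cells by 1.73 ± 0.50 (SE) on the log2 scale (adjusted p = 0.0186), and the groups did not overlap, as for 41.2% of all genes tested. This call was lost without parental replicate 2 (adjusted p = 0.0796), without Holoclone replicate 2 (0.0722) or without Holoclone replicate 3 (0.0641), each time with a log2 fold change between 1.49 and 1.60. The Panc89 Paraclone cells were spread over the whole range of the line, from 69.4 to 496 TPM. Their comparison with the parental cells gave 0.98 (95% interval −0.08 to 2.04, adjusted p = 0.197), but without Paraclone replicate 2 it gave 1.85 (adjusted p = 9.43e-05). Between Panc89 Holoclone and Paraclone cells the log2 fold change was 0.75 (95% interval −0.31 to 1.80), which turned to −0.13 without the same library. The fit shares 1 estimate of the spread over all 6 groups. For MIR205HG the SD was 0, 0.087 and 0 in parental, Holoclone and Paraclone Panc1 cells, and 0.41, 0.50 and 1.52 in the Panc89 cells. The Panc1 groups lower the shared estimate, so that the p-values within Panc89 do not measure the spread of the Panc89 groups alone.

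MIR17HG, the host of the miR-17 cluster that MYC is known to activate, was higher in Panc89 in each cell variant. The TPM in replicates 1 to 3 were 0.970, 0.576 and 0.202 in parental Panc1 cells, 1.28, 1.29 and 0.802 in Panc1 Holoclone cells, and 0.609, 0.607 and 0.989 in Panc1 Paraclone cells. In Panc89 they were 5.66, 2.44 and 2.43 in parental cells, 7.58, 3.93 and 4.48 in Holoclone cells, and 8.45, 4.07 and 2.54 in Paraclone cells. Every Panc89 library was above every Panc1 library. The log2 fold change was 1.47 ± 0.34 (SE, adjusted p = 0.00124) for the parental, 1.54 ± 0.34 (adjusted p = 0.000829) for the Holoclone and 1.68 ± 0.34 (adjusted p = 0.00045) for the Paraclone cells. Within a line MIR17HG passed no comparison, and its Holoclone against Paraclone change was 0.29 (95% interval −0.43 to 1.01) in Panc1 and 0.15 (−0.57 to 0.87) in Panc89. All 3 calls between the lines were kept in each of the 14 alternative fits.

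MIR100HG showed the opposite order in 2 of the 3 cell variants, and MIR31HG was called only between the parental cells. MIR100HG was lower in Panc89 by 2.57 ± 0.31 (SE) on the log2 scale in parental cells (adjusted p = 2.15e-06) and by 1.55 ± 0.31 in Holoclone cells (adjusted p = 0.000347). Between the Paraclone cells its log2 fold change was −0.18 (95% interval −0.84 to 0.47, adjusted p = 0.623). MIR31HG was higher in parental Panc89 than in parental Panc1 cells by 0.66 ± 0.18 (SE, adjusted p = 0.00368), and its fold changes between the Holoclone and between the Paraclone cells were 0.20 (−0.17 to 0.58) and −0.08 (−0.46 to 0.29). Whether these fold changes differed between the cell variants was tested only for Holoclone against Paraclone, as given for each gene below.

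MIR155HG and MIR210HG completed the calls between the lines. MIR155HG, the host of a microRNA best known from activated immune cells, was higher in Panc89 than in Panc1 Paraclone cells by 1.01 ± 0.17 (SE, adjusted p = 8.36e-05). Between the Holoclone cells its change was 0.40 ± 0.17 with an adjusted p of 0.0485, and only 6 of 13 alternative fits kept this call. MIR210HG was higher in Panc89 than in Panc1 Holoclone cells by 1.23 ± 0.48 (SE, adjusted p = 0.0332), a call kept in 10 of 14 alternative fits. Without Panc89 Holoclone replicate 1 the change was 0.82 (adjusted p = 0.160). The call was also lost with no filter on low values (adjusted p = 0.0658) and without Panc1 Holoclone replicate 2 (0.0640) or replicate 3 (0.105). MIR22HG and MIR193BHG passed no comparison between the lines.

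To ask how cells with stem cell features differ from cells without them, Holoclone cells were compared with Paraclone cells in each line. In Panc1, 3 of the 8 host genes were called, MIR31HG, MIR100HG and MIR210HG, beside 37.3% of all genes. In Panc89 the same 3 genes and MIR155HG were called, 4 of 8, beside 35.7% of all genes. All of these were lower in Holoclone cells. Of all genes tested, 9.97% were called lower in Panc1 and 13.3% in Panc89 Holoclone cells. The clones did not overlap in level for 5 of the 8 host genes in Panc1 and 4 in Panc89, beside 51.3% and 40.8% of all genes tested. The median log2 fold change of the 8 genes was −0.35 in Panc1 and −0.73 in Panc89, beside 0.19 and 0.09 for all genes. The deposited scale shifts these comparisons: upper quartile scaling moved the median of all genes in Panc1 to 0.01, the share of calls that were higher from 73.3% to 51.3%, and the share of all genes called lower to 15.6%. In Panc89 the share of calls that were higher moved from 62.8% to 52.5%, and 17.3% of all genes were called lower. All called host genes kept their direction under both scalings tried.

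**Figure D2:**
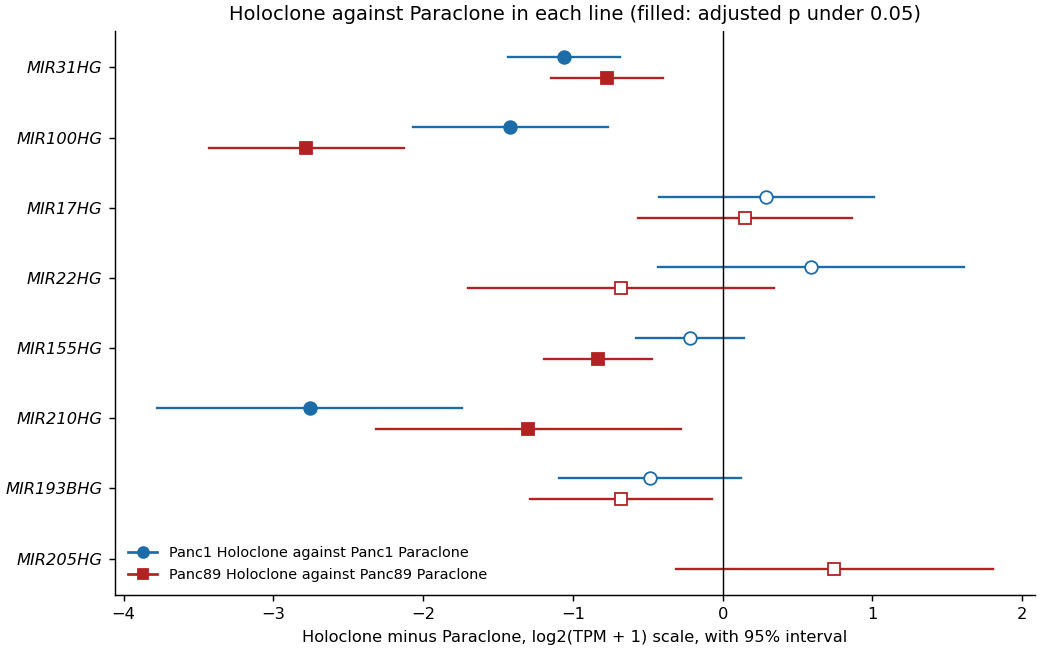
Holoclone minus Paraclone difference of each host gene on the log2(TPM + 1) scale (horizontal axis) with its 95% interval, in Panc1 (circles) and Panc89 (squares), filled where the adjusted p was under 0.05. MIR31HG, MIR100HG and MIR210HG lie left of 0 in both lines, MIR155HG is called in Panc89, and no difference is given for MIR205HG in Panc1, where it was listed at 0 in all but 1 Holoclone library (0.110 TPM).

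MIR31HG, the host of miR-31 on the short arm of chromosome 9, had a higher level in Paraclone cells of both lines. Panc1 Holoclone cells had 2.01, 2.22 and 2.57 TPM and Panc1 Paraclone cells 6.68, 4.97 and 5.80 TPM. Panc89 Holoclone cells had 2.35, 2.93 and 3.00 TPM and Panc89 Paraclone cells 5.57, 6.32 and 4.47 TPM. In either line each Paraclone library was above each Holoclone library. The fold changes of −1.06 ± 0.18 (SE, adjusted p = 0.00023) in Panc1 and −0.77 ± 0.18 (adjusted p = 0.00287) in Panc89 differed by 0.28 (95% interval −0.25 to 0.82, adjusted p = 0.413). Parental cells had 2.17, 2.72 and 1.46 TPM in Panc1, like the Holoclone cells, and 4.58, 3.09 and 4.03 TPM in Panc89, between the clones. Panc1 Paraclone cells exceeded their parental cells by 1.14 ± 0.18 (SE, adjusted p = 0.000202), whereas the Panc89 clones gave −0.38 (−0.75 to 0.0002, Holoclone) and 0.40 (0.02 to 0.77, Paraclone), with adjusted p of 0.141 and 0.136.

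MIR210HG, the host of the hypoxia microRNA miR-210, was the gene with the largest Holoclone against Paraclone change in Panc1 among the 8. Panc1 Holoclone cells had 2.38, 1.80 and 1.17 TPM and Panc1 Paraclone cells 15.4, 15.8 and 22.2 TPM, a change of −2.76 ± 0.48 (SE, adjusted p = 0.000325). Panc89 Holoclone cells had 10.4, 3.62 and 4.08 TPM and Panc89 Paraclone cells 17.2, 13.6 and 13.9 TPM, a change of −1.30 ± 0.48 (adjusted p = 0.0457). The groups did not overlap in either line, as for 51.3% of all genes tested in Panc1 and 40.8% in Panc89. The Panc1 call was kept in all 14 alternative fits, but the Panc89 call in only 5 of 14, with adjusted p up to 0.161, and it was lost when any of 5 libraries was left out, all but Holoclone replicate 1. The change differed between the lines by 1.46 (95% interval 0.02 to 2.90), with an adjusted p of 0.108.

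Parental Panc1 cells were uneven in MIR210HG, with 4.33, 16.5 and 2.10 TPM, whereas parental Panc89 cells had 6.19, 11.1 and 6.58 TPM. Parental replicate 2 thus reached the range of the Paraclone cells in Panc1. Panc1 Paraclone cells were higher than the parental cells by 1.49 ± 0.48 (SE, adjusted p = 0.0295), a call kept in 8 of 14 alternative fits. It was lost without parental replicate 1 (adjusted p = 0.102), parental replicate 3 (log2 fold change 0.94, adjusted p = 0.151), Paraclone replicate 2 (0.0630) or Paraclone replicate 3 (0.0981). Panc1 Holoclone cells had a change of −1.27 against parental cells (adjusted p = 0.111), which was −1.82 without parental replicate 3 (adjusted p = 0.0206). Between the parental cells of both lines, MIR210HG gave 0.40 (95% interval −0.62 to 1.42), 1.10 without Panc1 parental replicate 2 (adjusted p = 0.0163) and −0.15 without Panc1 parental replicate 3.

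MIR100HG, the host of miR-100, let-7a-2 and miR-125b-1, had the widest contrast between the Panc89 clones. Panc89 Holoclone cells had 1.77, 0.884 and 0.962 TPM and Panc89 Paraclone cells 20.3, 10.6 and 12.5 TPM, with 2.41, 3.85 and 2.19 TPM in the parental cells. Panc1 Holoclone cells had 4.59, 6.30 and 5.25 TPM and Panc1 Paraclone cells 12.6, 15.7 and 20.5 TPM, with 34.1, 13.2 and 21.0 TPM in the parental cells. Holoclone cells were lowest in both lines, but the parental cells sat with the Paraclone cells in Panc1 and nearer the Holoclone cells in Panc89. Holoclone against Paraclone gave −2.78 ± 0.31 (SE, adjusted p = 4.58e-06) in Panc89 and −1.42 ± 0.31 (adjusted p = 0.00181) in Panc1.

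In the fit of all libraries, MIR100HG was the only host gene whose Holoclone against Paraclone change passed the test of a difference between the lines. It was 1 of 8, beside 35.1% of all genes. The change was more negative in Panc89 by −1.36 ± 0.43 (SE, 95% interval −2.28 to −0.44, adjusted p = 0.0230). It missed the threshold without Panc1 Holoclone replicate 2, Panc1 Paraclone replicate 1, Panc89 Holoclone replicate 2 or Panc89 Paraclone replicate 1, with adjusted p between 0.0525 and 0.0626. Over the 8 genes the median difference was −0.17, beside −0.11 for all genes.

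MIR155HG was low throughout, and its highest values were in Panc89 Paraclone cells, with 1.71, 2.08 and 1.80 TPM. Panc89 Holoclone cells had 0.605, 0.456 and 0.779 TPM and parental Panc89 cells 0.907, 0.541 and 0.716 TPM. The Paraclone libraries lay above all other libraries of the study. Panc89 Holoclone cells were lower than Paraclone cells by 0.83 ± 0.17 (SE) on the log2 scale (adjusted p = 0.00124), and Paraclone cells were higher than parental cells by 0.74 ± 0.17 (adjusted p = 0.00561). In Panc1 the TPM were 1.07, 1.16 and 0.757 in parental, 0.273, 0.145 and 0.240 in Holoclone, and 0.915, 0.189 and 0.252 in Paraclone cells. Here the parental cells were highest, and Paraclone replicate 1 stood apart from the other replicates of its group. The Holoclone against Paraclone change in Panc1 was −0.22 (95% interval −0.58 to 0.14), and its difference from that in Panc89 was −0.61 (−1.12 to −0.10, adjusted p = 0.0588). Without Panc1 Paraclone replicate 1 this difference was −0.83 (adjusted p = 0.00480).

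Because MIR155HG is best known from blood cells, leukocyte markers were read beside it. PTPRC, the pan-leukocyte antigen CD45, was at most 0.956 TPM in any library and lay between 0.0509 and 0.388 TPM in the Panc89 Paraclone cells. The sum of the 4 leukocyte markers was 2.42 to 5.65 TPM in Panc89 Paraclone, 0.444 to 0.628 in Panc89 Holoclone and 3.87 to 5.26 in parental Panc89 cells, most of it CD14 in the latter and in the Paraclone cells. Parental Panc89 cells thus had a higher marker sum than the Holoclone cells at overlapping MIR155HG levels, and their marker sum overlapped that of the Paraclone cells. The part of leukocyte transcripts in the MIR155HG values was not tested.

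Compared with their own parental cells, between 1 and 3 of the 8 host genes were called in each clone. In Panc1, 2 of 8 were called in Holoclone cells, both lower, beside 10.9% of all genes, and 3 of 8 in Paraclone cells, beside 28.6%. In Panc89, 1 of 8 was called in Holoclone cells, MIR205HG, beside 24.7%, and 2 of 8 in Paraclone cells, both higher, beside 19.4%. These comparisons share their parental libraries, so that their values are given side by side without a test of overlap. MIR100HG gave −1.81 ± 0.31 (SE, adjusted p = 0.00103) in Panc1 Holoclone and −0.39 (95% interval −1.04 to 0.26) in Panc1 Paraclone cells. In Panc89 it gave −0.79 (−1.44 to −0.14, adjusted p = 0.0736) in Holoclone cells, which was −0.96 without Holoclone replicate 1 (adjusted p = 0.0470), and 1.99 ± 0.31 (SE, adjusted p = 0.000254) in Paraclone cells. The Panc1 clone that departed from its parental cells in MIR100HG was thus the Holoclone. MIR155HG was lower than in parental cells in both Panc1 clones, by 0.71 ± 0.17 (SE, adjusted p = 0.0127) in Holoclone and by 0.49 ± 0.17 (adjusted p = 0.0419) in Paraclone cells. The former was lost without parental replicate 2 (adjusted p = 0.0535), and the latter was kept in only 4 of 13 alternative fits.

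MIR22HG, the host of miR-22 and a transcript induced by many cell stresses, varied widely within most groups. Parental Panc1 cells had 48.9, 16.3 and 40.5 TPM, Panc1 Holoclone cells 22.3, 25.1 and 30.7 TPM, and Panc1 Paraclone cells 16.4, 15.4 and 18.7 TPM. Parental Panc89 cells had 21.6, 12.4 and 16.7 TPM, Panc89 Holoclone cells 12.8, 19.3 and 36.9 TPM, and Panc89 Paraclone cells 58.2, 14.0 and 48.0 TPM. Neighbouring groups in the order of means overlapped throughout, but Panc1 Holoclone libraries lay above all Panc1 Paraclone libraries, with a change of 0.59 (adjusted p = 0.370, and 0.0266 in a fit of these groups alone). No comparison was called in the fit of all groups, but single libraries decided several of them. Without Panc89 Paraclone replicate 2, MIR22HG was higher in Panc89 Paraclone than in parental cells by 1.62 (adjusted p = 0.0102), higher than in Panc1 Paraclone cells by 1.60 (adjusted p = 0.00387) and lower in Panc89 Holoclone than in Paraclone cells by −1.29 (adjusted p = 0.0222). The difference between the lines in its Holoclone against Paraclone change was then −1.885 (adjusted p = 0.0157). With all libraries this difference was −1.27 (adjusted p = 0.165). Without Panc1 parental replicate 2 MIR22HG was lower in parental Panc89 than in parental Panc1 cells, with a log2 fold change of −1.38 (adjusted p = 0.0216). WDR81, which overlaps MIR22HG on the other strand, had group means between 8.88 and 20.6 TPM. Its change between the parental lines was −0.71 (adjusted p = 0.00568), beside −0.92 (adjusted p = 0.106) for MIR22HG, and between the Panc1 clones 0.56 (adjusted p = 0.0391), beside 0.59 (adjusted p = 0.370).

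MIR193BHG, the host of miR-193b and miR-365a, stayed near 1 TPM. Its group means ran from 0.450 ± 0.214 TPM (SD, n = 3) in Panc89 Holoclone to 1.56 ± 1.47 TPM in Panc89 Paraclone cells, where replicate 1 had 3.23 TPM and the others 0.491 and 0.949 TPM. The other groups ranged from 0.879 to 1.64 TPM in parental Panc1, 0.231 to 0.606 in Panc1 Holoclone, 0.767 to 1.23 in Panc1 Paraclone and 0.416 to 0.746 TPM in parental Panc89 cells. In Panc1 the Holoclone libraries lay under all Paraclone and all parental libraries, comparisons in which 51.3% and 30.3% of all genes tested did not overlap. The change against Paraclone cells was −0.48 (95% interval −1.09 to 0.12, adjusted p = 0.206). In Panc89 it was −0.68 (−1.29 to −0.07, adjusted p = 0.0759), and −0.997 without Paraclone replicate 2 (adjusted p = 0.00866). Panc89 Paraclone against parental cells gave 0.53 (adjusted p = 0.222), and 0.85 without the same library (adjusted p = 0.0311). This library had the lowest level of its group in MIR205HG, MIR100HG, MIR22HG, MIR210HG and MIR193BHG.

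The neighbourhood of MIR31HG on chromosome 9 differed between the lines in a way that MIR31HG itself did not. CDKN2A and CDKN2B, the tumor suppressor genes that encode p16 and p15, were listed at 0 in all Panc1 libraries. In Panc89 CDKN2A lay between 272 and 500 TPM and CDKN2B between 66.0 and 287 TPM. MTAP, an enzyme of methionine salvage that lies 243 kb from MIR31HG on the side of CDKN2A, had 0.702 to 2.41 TPM in Panc1 and 56.2 to 111 TPM in Panc89 libraries. KLHL9, 44.7 kb away on the other side, was present in both lines, with 5.25 to 7.35 TPM in Panc1 and 13.4 to 23.0 TPM in Panc89. HACD4, 348 kb away on the side of KLHL9, averaged 0.122, 0.238 and 0.0202 TPM in parental, Holoclone and Paraclone Panc1 cells. In the Panc89 cells HACD4 averaged 3.33, 6.0 and 2.85 TPM, so that low levels in Panc1 were found on both sides. MIR31HG, between MTAP and KLHL9, was present in every Panc1 library, with 1.46 to 6.68 TPM, and its range overlapped that of Panc89, 2.35 to 6.32 TPM. DNA was not measured.

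**Figure D3:**
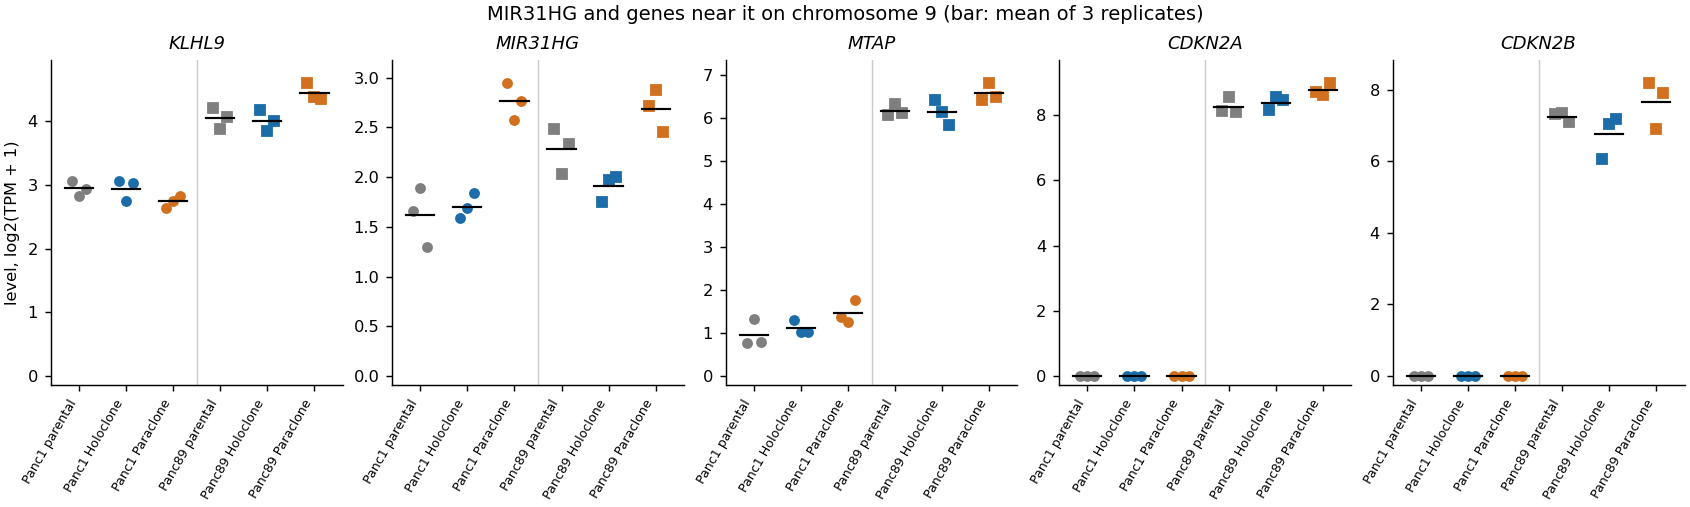
Levels of MIR31HG and 4 genes near it on chromosome 9 in every library, as log2(TPM + 1), for the 6 groups (points: replicates, bar: mean of 3). CDKN2A and CDKN2B are at 0 in all Panc1 groups and MTAP is close to it, whereas MIR31HG and KLHL9 are measured in both lines.

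Near MIR205HG, the nearest tested protein-coding gene downstream was LAMB3, a laminin chain of epithelial basement membranes, 182 kb away. LAMB3 averaged 1.43, 0.240 and 4.80 TPM in parental, Holoclone and Paraclone Panc1 cells and 112, 173 and 310 TPM in the Panc89 cells. It shared with MIR205HG the higher level in Panc89, with log2 fold changes of 5.56, 7.09 and 5.61, but it was measured in Panc1 cells, where MIR205HG was listed at 0. Around MIR100HG the nearest tested protein-coding genes on each side were UBASH3B, a phosphatase 99.0 kb away, and SORL1, a sorting receptor 395 kb away. UBASH3B was lower in Panc89 in each cell variant, by −3.47, −2.74 and −3.74, and its Holoclone against Paraclone change of 0.56 in Panc89 (adjusted p = 0.0503) ran against that of MIR100HG. SORL1 was higher in Panc89 Holoclone than Paraclone cells by 2.23 (adjusted p = 2.02e-05), a change opposite in sign to that of MIR100HG. Next to MIR210HG, RASSF7, LMNTD2 and PHRF1 lie within 8.01 kb, and none of these was called between Holoclone and Paraclone cells in either line, with changes between −0.27 and 0.28. IRF7, an interferon factor 44.1 kb away, was higher in Panc1 Holoclone cells by 1.14 (adjusted p = 0.0282), opposite to MIR210HG, and gave −0.09 in Panc89 (adjusted p = 0.901).

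Regulators known for these loci were read beside their hosts from a list of 16 genes, of which 15 were tested. Between the parental cells 4 were higher and 6 lower in Panc89. Between Holoclone and Paraclone cells 5 were higher and 1 lower in Panc1, and 3 were higher and 3 lower in Panc89. The median of the list was −0.30, 0.47 and 0.06 in these comparisons, beside −0.18, 0.19 and 0.09 for all genes, of which 66%, 37.3% and 35.7% were called. TP63, the master factor of basal epithelium and a known activator of miR-205, was at most 0.368 TPM in Panc1 libraries. In Panc89 it had 33.1 to 49.0 TPM in parental, 127 to 154 TPM in Holoclone and 10.4 to 20.4 TPM in Paraclone cells. MIR205HG shared with TP63 a level at or near 0 in Panc1 and the rise from parental to Holoclone cells in Panc89, where TP63 changed by 1.70 (adjusted p = 1.42e-05). In Panc89 Paraclone cells TP63 was below its parental level by −1.39 (adjusted p = 0.000144), while the change of MIR205HG was not called. There, replicates 1 and 3 lay above all parental libraries in MIR205HG, and replicate 2, with 69.4 TPM, lay below them.

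MYC, the known activator of MIR17HG, averaged 496, 564 and 390 TPM in parental, Holoclone and Paraclone Panc89 cells and 90.6, 86.1 and 74.5 TPM in the Panc1 cells. Its log2 fold changes between the lines of 2.44, 2.70 and 2.37 stood beside 1.47, 1.54 and 1.68 for MIR17HG. Both were called higher in Panc89 in each cell variant, as were 4421, 4720 and 4868 of the 16093 genes tested. Between the Panc89 clones MYC was higher in Holoclone cells by 0.52 (adjusted p = 0.0122), where MIR17HG was not called. E2F1, another activator of the cluster, was lower in Panc89 than in Panc1 Holoclone cells, with 8.10 against 33.3 TPM (log2 fold change −2.21, adjusted p = 0.00618). It was not called between the parental cells (−0.10, adjusted p = 0.902) or the Paraclone cells (−0.88, adjusted p = 0.243).

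HIF1A, which encodes the oxygen-regulated subunit of the hypoxia factor, differed between the Panc1 clones in the same direction as MIR210HG and was not called between the Panc89 clones. It had 65.4 to 67.2 TPM in parental, 68.8 to 77.6 TPM in Holoclone and 160 to 198 TPM in Paraclone Panc1 cells. Its Holoclone against Paraclone change was −1.29 in Panc1 (adjusted p = 5.81e-06) and −0.14 in Panc89 (adjusted p = 0.488), and the difference between the lines was 1.15 (adjusted p = 0.000482). HIF1A protein is controlled mainly by its breakdown, which mRNA levels do not show. The promoter of MIR210HG is printed because miR-210 is a textbook target of this factor, whose response element often has the core ACGTG, the only form searched. RefSeq's window from 250 bases before to 50 bases after the start of MIR210HG, chr11:568408-568707 on the minus strand of GRCh38.p14, holds a single match, in capitals, 170 bases before the start.
MIR210HG promoter: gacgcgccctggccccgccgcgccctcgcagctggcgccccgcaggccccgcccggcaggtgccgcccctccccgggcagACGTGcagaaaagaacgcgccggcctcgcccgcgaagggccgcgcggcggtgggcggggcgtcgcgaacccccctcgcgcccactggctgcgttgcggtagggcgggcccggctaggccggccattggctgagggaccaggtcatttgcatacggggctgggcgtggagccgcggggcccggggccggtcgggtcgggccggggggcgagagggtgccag

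The core ACGTG was searched on both strands and also lies within the E-box CACGTG. It was found in 7518 of 35116 promoter windows of the same length, or 21.4%, so that a match is common. Besides MIR210HG, windows of MIR22HG and MIR155HG and 1 of the 6 windows of MIR100HG held it, and those of MIR205HG, MIR31HG, MIR17HG and MIR193BHG did not. The AP-1 site TGAGTCA, bound by JUN and FOSL1, was found among the 8 hosts in MIR155HG and in 1738 of all windows, or 4.95%. Such matches describe the letters of the windows and say nothing about binding in these cells.

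**Figure D4:**
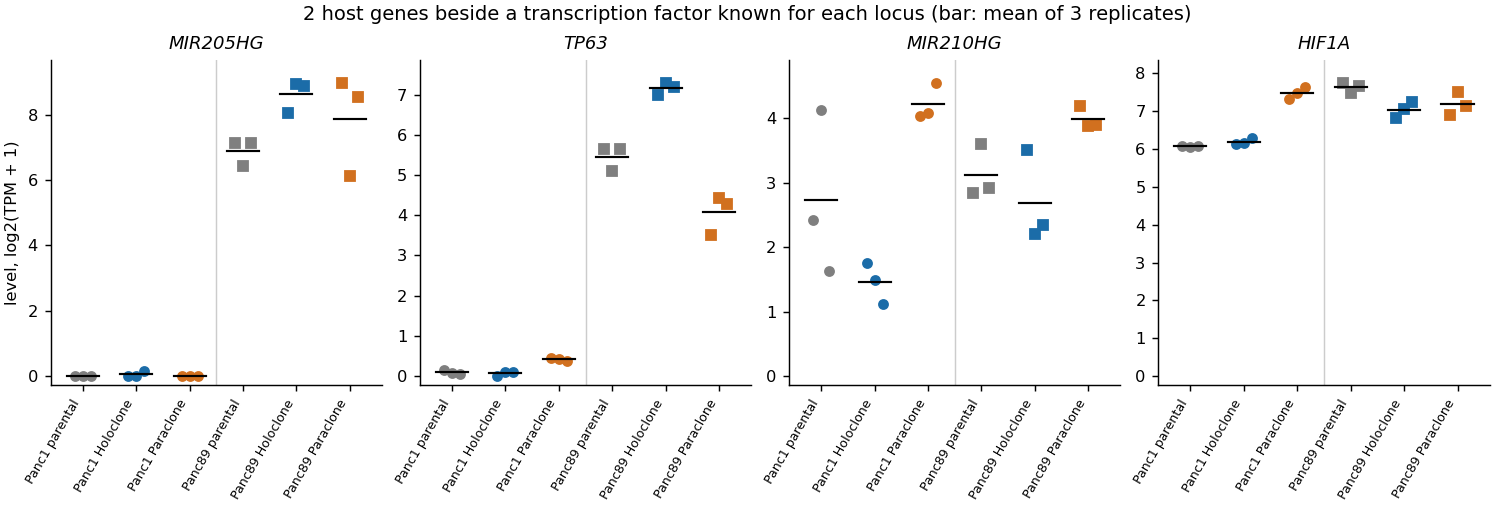
Levels of MIR205HG beside TP63, and of MIR210HG beside HIF1A, in every library as log2(TPM + 1) for the 6 groups (points: replicates, bar: mean of 3). MIR205HG and TP63 are both near 0 in Panc1. In Panc89 Paraclone cells TP63 lies below its parental level and MIR205HG is spread on both sides of its own, and HIF1A is high in Panc1 Paraclone cells and in all Panc89 groups.

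Genes of microRNA biogenesis and silencing, through which the products of all 8 hosts pass, were measured as a list of 20, of which 19 were tested. In Panc1, 11 were called between Holoclone and Paraclone cells, each of them higher in Holoclone cells, with a list median of 0.46 beside 0.19 for all genes. Of all 16093 genes, 37.3% were called and 4402 were higher in this comparison, and its balance of higher and lower calls depends on the scaling as given above. Among those with at least 5 TPM in the higher group, the largest called changes were those of AGO4, an Argonaute protein, with 1.24 (adjusted p = 0.000266), and of TNRC6A, a silencing cofactor of Argonaute, with 0.83 (adjusted p = 3.70e-05). TNRC6C, a relative of TNRC6A with 3.75 TPM in Holoclone cells and therefore under that limit, changed by 1.70 (adjusted p = 1.64e-06). In Panc89, 3 were higher and 3 lower, beside 35.7% of all genes called, with a median of 0.02 beside 0.09. TNRC6A was again higher, by 0.68 (adjusted p = 0.000225), as was the hairpin exporter XPO5, by 0.75 (adjusted p = 0.00139). AGO4, in contrast, was lower by −0.62 (adjusted p = 0.0323).

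Known targets of the encoded microRNAs, 35 genes that were all tested, were described by the same comparisons. In Panc1, 16 were higher and 4 lower in Holoclone than in Paraclone cells, beside 37.3% of all genes called, with a median of 0.44 beside 0.19 for all genes. In Panc89, 5 were higher and 7 lower, beside 35.7%, with a median of −0.03 beside 0.09. Of the 7 targets of miR-31, whose host was lower in Holoclone cells, 3 were higher and 1 lower in Panc1, and the 3 called in Panc89 were lower. LATS2, a kinase of the Hippo pathway, was higher in Panc1 Holoclone cells by 0.90 (adjusted p = 0.00049) but lower in Panc89 Holoclone cells, with −0.62 (adjusted p = 0.00776), and the difference between the lines was −1.52 (adjusted p = 0.000118). ITGA5, the fibronectin receptor subunit and also a target of miR-31, was lower in Holoclone cells of both lines, by −2.25 (adjusted p = 1.58e-07) and −1.59 (adjusted p = 6.57e-06), like the host itself. Of the 4 targets of miR-210, 1 was called in each line. This was ISCU, an iron-sulfur scaffold, which was higher in Holoclone cells of both lines, by 0.84 (adjusted p = 0.00416) and 0.65 (adjusted p = 0.0204). EFNA3, GPD1L and PTPN1 were not called. Their Panc1 changes ran from −0.63 to 0.07, and those of the Panc89 clones from −0.47 to 0.34. The 3 targets of miR-205, ZEB1, ZEB2 and ERBB3, were all lower in Panc89 Holoclone than in Paraclone cells, by −0.95, −0.96 and −1.36, where MIR205HG itself was not called. Between the parental lines ZEB1 was at 0.0519 TPM in Panc89 and 17.2 TPM in Panc1, opposite to MIR205HG. ZEB2 was at 0.658 against 0.468 TPM and was not called (0.18, adjusted p = 0.278). ERBB3, a receptor tyrosine kinase, was at 120 against 1.68 TPM, in the same direction as MIR205HG.

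The genes with patterns most like each host were taken by Pearson correlation over the 18 libraries after the mean of each line had been subtracted. These correlations are descriptions over 18 libraries that share groups and passages, chosen as the highest of all genes tested. MIR210HG had the closest partner, LRP8, a lipoprotein receptor, with r = 0.965, then ID1, an inhibitor of differentiation, with 0.933. MIR205HG was closest to FLJ43315 (0.954) and to FRAS1, a basement membrane protein (0.947), and MIR100HG to ZNF506 (0.945). MIR31HG was closest to FYB1 and TNIP1, each with 0.911, MIR22HG to CCNI (0.907), MIR155HG to RTEL1-TNFRSF6B (0.894) and MIR193BHG to CDK5R2 (0.862). MIR17HG had no partner above ZNF778 with 0.757. Among the hosts themselves, the closest pairs were MIR155HG with MIR100HG (0.746) and MIR210HG with MIR31HG (0.734).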

How the data were processed

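RNA of 18 libraries of Panc1 and Panc89 cells was analysed. The authors prepared libraries from 3 passages per cell variant with a stranded mRNA kit, read them paired-end on a NovaSeq instrument, estimated transcript levels by kallisto 0.46.1 against Ensembl release 106 of GRCh38 and summarized scaled TPM to genes with tximport. The deposited values are log2(TPM + 1), without counts. Samples were grouped by their labels, and 0 columns were left unused. From these values, all groups were fitted together with limma 3.58.1 in R 4.3.3 (lmFit, eBayes with trend, 1 mean per group) for genes that reached 1 TPM in 3 libraries or more. P-values are two-sided and adjusted by Benjamini-Hochberg. The procedure was tested on simulated data. Alternatives were a pseudocount of 0.1, no filter, a filter of 5 TPM, a fit of the compared groups alone, the replicate number as a block, upper quartile and median-of-ratios scaling, no trend, and leaving out each library. The host genes and the lists were chosen with earlier results of these data known. Named were the 8 hosts, list genes with the largest called changes (higher group at least 5 TPM), neighbours and the best correlated genes. Outside that rule, TNRC6C, ZEB2, EFNA3, GPD1L and PTPN1 were named to complete their lists and WDR81 for its overlap with MIR22HG. Positions come from GENCODE 44 and sequences from RefSeq.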

Additional observations from a re-analysis of the deposited data

Results flagged for a closer look

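MIR100HG was flagged because its Holoclone against Paraclone change differed between the lines in a test of the difference itself. It was 1 of 8 host genes to pass this test, which 35.1% of all genes tested passed. The change was −2.78 in Panc89 and −1.42 in Panc1 on the log2(TPM + 1) scale, a difference of −1.36 with an adjusted p of 0.0230 in limma. Parental Panc1 cells had 13.2 to 34.1 TPM and parental Panc89 cells 2.19 to 3.85 TPM. The difference kept its sign in all 20 alternative fits and its call in 16 of them.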

How the results depend on the processing

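Of the counts of called host genes, 119 alternative values stayed within 1.5 times the count reported, 18 fell below that range and 9 rose above it. Of the single fold changes 1060 kept their direction and call, 43 lost the call, 19 gained it and 26 changed sign. Outside the libraries left out, the counts that moved were as follows. Between the Holoclone cells of both lines, no filter on low values left 3 of 5. Between Panc1 Holoclone and Paraclone cells, a fit of these groups alone gave 5 in place of 3, adding MIR22HG (0.59, adjusted p = 0.0266) and MIR193BHG (−0.48, adjusted p = 0.0467). Against parental Panc1 cells, the filter of 5 TPM left 1 of 2 in Holoclone cells, since MIR155HG does not reach it, and both no filter and the groups alone left 1 of 3 in Paraclone cells. Against parental Panc89 cells, a pseudocount of 0.1 gave 2 in place of 1 in Holoclone cells, with MIR100HG at −1.18, and the filter of 5 TPM left 1 of 2 in Paraclone cells. The test of the difference between the lines gave 2 in place of 1 with the groups alone, adding MIR210HG (1.46, adjusted p = 0.0275), and 2 with upper quartile scaling, median-of-ratios scaling or no trend, each adding MIR155HG (−0.63, −0.65 and −0.61). Where no value shows it, the cause was not tested.

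MIR193BHG, never called, turned sign under scaling, to 0.0156 (upper quartile) and 0.0371 (median of ratios) between the Holoclone cells and to 0.0253 and 0.0437 for Panc1 Paraclone against parental cells. The scalings also moved the median of all genes, between parental lines from −0.18 to −0.04 and 0.02 and for Panc1 Paraclone against parental cells from −0.17 to −0.02 and 0. The share of all calls that were higher moved from 25.6% to 47.4% and 53% in the latter and from 65.2% to 51.3% and 51% for Panc89 Holoclone against parental cells. The groups alone gave 3377 calls over all genes between Panc89 Holoclone and Paraclone cells, in place of 5746.

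When single libraries were left out, the count of called host genes lay between 1 and 3 in Panc1 Holoclone and in Panc1 Paraclone against parental cells, 3 and 5 between the Holoclone cells, 0 and 2 in Panc89 Holoclone and 2 and 5 in Panc89 Paraclone against parental cells, and 0 and 2 for the difference between the lines. The count of 5 in Panc89 Paraclone cells came without Paraclone replicate 2. Uncalled fold changes that changed sign ranged as follows. MIR17HG ran from −0.0299 to 0.327 for Panc1 Paraclone and −0.0150 to 0.693 for Panc89 Paraclone against parental cells, −0.174 to 0.535 between the Panc89 clones, and −0.463 to 0.245 for the difference between the lines. MIR193BHG ran from −0.177 to 0.0697 for Panc1 Paraclone against parental cells, −0.142 to 0.0988 between the Holoclone cells, −0.259 to 0.494 between the Paraclone cells and −0.513 to 0.240 for the difference. MIR205HG ran from −0.125 to 1.28 between the Panc89 clones and −0.175 to 1.23 for the difference. MIR22HG ran from −0.762 to 0.00208 in Panc1 and −0.0609 to 0.667 in Panc89 Holoclone against parental cells, and −0.679 to 0.0492 between the Holoclone cells. MIR31HG ran from −0.0760 to 0.224 for Panc1 Holoclone against parental cells and −0.178 to 0.0322 between the Paraclone cells, and MIR210HG from −0.149 to 1.10 between the parental lines.

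Replicate numbers did not pair the libraries: over 18 pairs with the same number in a line, deviations from the group means correlated with r from −0.318 to 0.190 (mean −0.0418). With the replicate block, 4, 4 and 3 host genes were called between the lines, 3 and 3 between Holoclone and Paraclone cells, 2, 2, 1 and 2 against parental cells and 1 for the difference. TPM keep no depth, so whether values listed at 0 reflect absence or depth is unknown.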

Other observations

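Other host genes named after a microRNA were described by the same fits, 77 symbols of which 27 were tested. Between Holoclone and Paraclone cells, 8 were higher and 1 lower in Panc1, and 6 were higher and 5 lower in Panc89, with medians of 0.21 and 0.03 beside 0.19 and 0.09 for all genes, of which 37.3% and 35.7% were called. MIR200CHG, at the locus of the epithelial microRNAs miR-200c and miR-141, had a pattern close to that of MIR205HG between the lines, with at most 0.228 TPM in any Panc1 library and 17.7 to 75.8 TPM in Panc89. Unlike MIR205HG, it was lower in Panc89 Holoclone than in Paraclone cells, with 28.2 against 61.0 TPM (log2 fold change −1.06, adjusted p = 0.0153). MIRLET7BHG, the host of let-7b and let-7a-3, moved in opposite directions in the lines. It had 30.1 to 41.8 TPM in Panc1 Holoclone and 8.18 to 16.8 TPM in Panc1 Paraclone cells (1.56, adjusted p = 0.00401), but 0.678 to 1.39 TPM in Panc89 Holoclone and 5.15 to 18.5 TPM in Panc89 Paraclone cells (−2.42, adjusted p = 0.000125). The difference of these changes was −3.98 (adjusted p = 3.41e-05). MIR100HG, which carries the related let-7a-2, was lower in Holoclone cells of both lines.

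Among 37 further genes with an intronic or overlapping microRNA, 35 were tested, of which 11 were higher and 7 lower in Panc1 and 9 higher and 5 lower in Panc89 Holoclone than in Paraclone cells, beside 37.3% and 35.7% of all genes called. The list medians were 0.17 and 0.16, beside 0.19 and 0.09 for all genes. H19, the imprinted host of miR-675, averaged 2200 TPM in Panc89 Holoclone, 4330 TPM in parental Panc89 and 15.5 TPM in Panc89 Paraclone cells. In Panc1 it averaged 191 TPM in Holoclone and 296 TPM in both other groups. IGF2, its imprinted neighbour and the host of miR-483, averaged 9.69, 3.50 and 113 TPM in parental, Holoclone and Paraclone Panc1 cells. In the Panc89 cells IGF2 averaged 0.0728, 0.163 and 0.0494 TPM. MEST, the imprinted host of miR-335, averaged 69.7, 28.3 and 2.83 TPM in parental, Holoclone and Paraclone Panc1 cells. Both Panc1 clones were thus below their parental cells, and the Panc89 cells averaged 56.9, 65.9 and 61.5 TPM of MEST.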
